A study of Mus musculus with 2 samples.

Results

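Interferon-stimulated genes were compared between mouse splenic B cells transduced with a retrovirus encoding the microRNA miR-181b and B cells transduced with the control retrovirus. The set names 36 genes of the interferon response. Its probes were found by the gene name printed in the scanner files, and 32 genes were matched that way. Another 3 were matched through their RefSeq accession, because the files use other or older names: Isg15 (G1p2 in the set), Dhx58 (D11Lgp2e in the files) and Gbp3 (Gbp4 in the files). No probe of Xaf1 was analysed here. The 35 genes had 56 probes, of which 54 were measured, and all 35 were among the 17560 measured genes. A probe counted as measured when the scanner software marked it well above background in all 4 channel readings, 1 per RNA and array.

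B lymphocytes had been taken from spleens of C57/BL6 mice and enriched by magnetic removal of CD43-positive cells. The miR-181b cells and the control cells were treated alike. The culture medium of both held 25 µg/ml lipopolysaccharide, a bacterial activator of B cells, and interleukin-4 at 10 ng/ml. Virus was added for 20 h in the presence of 8 µg/ml of polybrene, and cells positive for green fluorescent protein, which both vectors carried, were sorted 2 days after infection. The labels give neither the age of the animals nor whether spleens were pooled. The series holds 1 RNA sample per vector, hybridised together on 2 arrays with exchanged dyes. On array 1 the dye of miR-181b was Cy5 and that of the control was Cy3, and on array 2 this was exchanged. Both arrays are technical repeats of the same RNA pair, so the vectors could not be tested against each other, and every difference describes these RNA samples only.

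Interferons are secreted proteins that cells release when receptors such as Toll-like receptors or cytoplasmic RNA helicases detect microbial products. They bind surface receptors that activate JAK kinases, and a complex that contains Stat2 and Irf9 then enters the nucleus and binds interferon-stimulated response elements in promoters. The induced genes encode antiviral effectors, more sensors, transcription factors that amplify the loop, and regulators that damp it. Lipopolysaccharide can start such a response through Tlr4, and in this experiment both RNAs came from cells that had received it.

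The vector encoded miR-181b. Its mature sequence in RefSeq (GRCm38.p6) is the same at both of its loci, chr1:137966650-137966673 and chr2:38853845-38853868, on the plus strand. It is shown because its seed, bases 2 to 8 in capitals, is the part that pairs with target messenger RNAs.
mmu-miR-181b-5p: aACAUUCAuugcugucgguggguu
The 7 letters complementary to that seed, TGAATGT, occur in 0 of the 56 probe sequences of the set, against 393 of 41146 probes on the array (0.955%). Probes cover 60 bases of a transcript, so these counts say nothing of the rest of the transcript.

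The promoters below belong to the 4 genes with the largest mean ratio among those higher on both arrays that hold 1 of 2 motifs. They are RefSeq windows (GRCm38.p6) of 250 bases before to 50 bases after a transcript start. Capitals mark GAAA followed after any 2 bases by GAAA, on either strand, which is the core of the interferon-stimulated response element (ISRE core). They also mark TTC followed after any 3 bases by GAA, the gamma-activated site (GAS) bound by STAT dimers, which reads the same on both strands. The windows lie at chr7:78913174-78913473 (plus strand, Isg20, 1 of 3 windows), chr3:89730468-89730767 (plus strand, Adar, 1 of 3 windows), chr11:101448162-101448461 (plus strand, Ifi35) and chr4:156200769-156201068 (minus strand, Isg15).
Isg20: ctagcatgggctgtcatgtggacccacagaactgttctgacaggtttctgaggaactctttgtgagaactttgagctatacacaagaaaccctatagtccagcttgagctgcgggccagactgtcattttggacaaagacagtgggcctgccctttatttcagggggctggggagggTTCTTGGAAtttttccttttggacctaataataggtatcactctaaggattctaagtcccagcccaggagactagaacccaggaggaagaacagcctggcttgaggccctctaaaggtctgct
Adar: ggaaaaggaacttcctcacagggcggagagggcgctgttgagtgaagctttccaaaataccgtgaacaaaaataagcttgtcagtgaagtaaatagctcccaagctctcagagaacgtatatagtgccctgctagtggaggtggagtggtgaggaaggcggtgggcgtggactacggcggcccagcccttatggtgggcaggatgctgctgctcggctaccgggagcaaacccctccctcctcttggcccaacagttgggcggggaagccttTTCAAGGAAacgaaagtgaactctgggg
Ifi35: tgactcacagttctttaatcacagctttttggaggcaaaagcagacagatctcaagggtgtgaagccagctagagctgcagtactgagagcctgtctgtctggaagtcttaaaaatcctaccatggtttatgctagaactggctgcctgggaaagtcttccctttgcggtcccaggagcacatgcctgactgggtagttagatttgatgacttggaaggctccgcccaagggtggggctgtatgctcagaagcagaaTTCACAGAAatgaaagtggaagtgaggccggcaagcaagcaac
Isg15: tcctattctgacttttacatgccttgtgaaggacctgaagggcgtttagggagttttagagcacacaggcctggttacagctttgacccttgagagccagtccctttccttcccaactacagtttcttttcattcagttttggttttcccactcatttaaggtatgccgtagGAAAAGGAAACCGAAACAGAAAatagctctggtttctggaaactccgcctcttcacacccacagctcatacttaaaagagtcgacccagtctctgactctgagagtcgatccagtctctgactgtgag
The window of Isg15 holds 3 overlapping copies of the ISRE core, and the windows of Isg20, Adar and Ifi35 hold 1 copy of the GAS each. Relative to the transcript start, these GAS copies begin at -73 (Isg20), 22 (Adar) and 7 (Ifi35). The ISRE core was sought with a fixed spacing of 2 bases, so variants of it were not counted. Of the 36 genes, 29 were found in the promoter table by symbol. Among them 15 hold the ISRE core in at least 1 window (51.7%), against 3.99% of the 27025 genes in the table. The GAS is in 9 of the 29 (31.0%), against 9.55% of all genes in the table, and 3 hold both motifs. Measured genes with the ISRE core had a median log2 ratio of 0.11 (15 genes, range -0.17 to 0.33), and those without it 0.16 (13 genes, range -0.06 to 0.60). A match describes the letters of a window, not binding.

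Values below are log2 ratios of miR-181b over control, with the brightest measured probe standing for a gene. The ± is the distance of either array from the mean of both. It measures technical spread, and since the dyes were exchanged it is also the size of the dye contrast. Intensities are loess-normalised, in arbitrary units, and levels of different probes are used together only to place genes on the intensity scale and to sum marker lists. In bulk RNA of this kind, a larger share of cells that express a gene and more RNA per cell cannot be told apart.

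The interferon-stimulated genes differed little between the RNAs. Their median log2 ratio was 0.12, with 0.09 on each array, against -0.005 for all measured genes (0.01 on array 1 and -0.02 on array 2). No gene of the set was at least 1.5-fold higher (0 of 35, against 0.820% of all measured genes) or at least 1.5-fold lower (0 of 35, against 0.513%), where a call needed the mean past 1.5-fold and the same sign on both arrays. At 2-fold 0 of 35 were higher, against 0.00569% of all genes, and 0 lower, against 0.0968%. Higher on both arrays were 14 of the 35 genes (40.0%), against 24.5% of all genes. Lower on both arrays were 5 (14.3%), against 27.4%. The other 16 (45.7%) had opposite signs on the arrays, against 48.1%.

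These counts changed with the dye normalisation. Loess removes a trend of the ratio with intensity. When it was left out and only the median of each array was set to 0, 1 of the 35 genes, Mx1, was higher on both arrays (2.86%, against 9.02% of all genes) and 17 were lower (48.6%, against 55.3%), and the set's median was -0.22. The median of all genes was then -0.21. The set's medians on the 2 arrays also moved apart (standard deviation 0.25, against 0.0003 with loess). The equal medians of 0.09 were thus not seen without loess. The trend with intensity was left in, and 29 of the 35 genes (82.9%) were brighter than the median gene. Set against genes in the same intensity bin, of 10 bins with 1756 genes each, a comparison added after the data were seen, the set's median was 0.12 above them with loess and 0.12 above them without. Under both settings 25 of the 35 genes lay above the median of their bin.

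**Figure D1:**
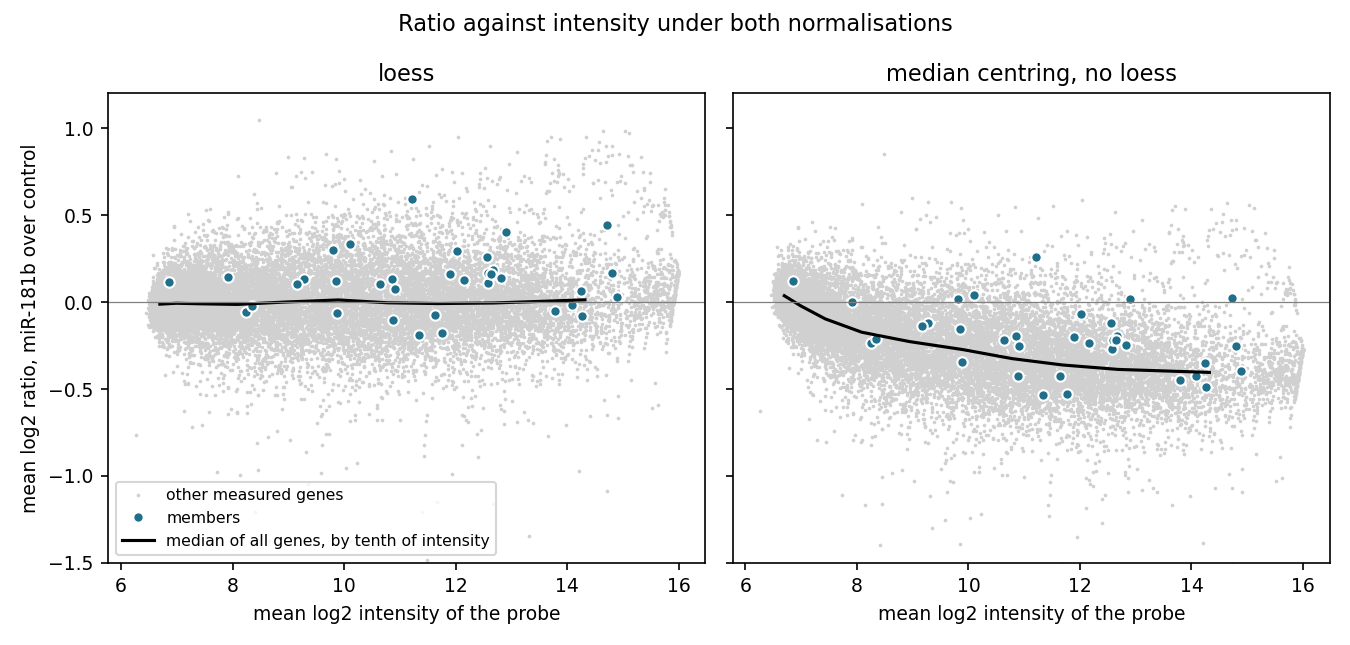
Mean log2 ratio of miR-181b over control of both arrays (vertical axis) against the mean log2 intensity of the probe (horizontal axis), with loess on the left and with median centring alone on the right. Grey points are the other measured genes, blue points the 35 interferon-stimulated genes and the black line the median of all genes in each of 10 intensity bins, which is -0.40 in the brightest bin without loess; 8 genes on the left and 18 on the right lie outside the axes.

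Antiviral effectors are the proteins that act on viral RNA, protein or particles. Taken over the list, the median ratio was 0.13 (array 1: 0.11, array 2: 0.09), and 11 of the 21 measured were higher on both arrays (52.4%, against 24.5% of all genes), 2 lower (9.52%, against 27.4%) and 8 of opposite sign (38.1%, against 48.1%). Isg20 encodes an exonuclease that degrades single-stranded RNA. Its normalised intensity was 33157 on array 1 and 29851 on array 2 in the miR-181b RNA, against 22436 and 23807 in the control RNA. Isg20 was higher on both arrays, as were 24.5% of all genes. The log2 ratio was 0.44 ± 0.12 (0.56 on array 1 and 0.33 on array 2), and 2.02% of all measured genes had a higher mean. Without loess the arrays had opposite signs for Isg20 (0.49 on array 1 and -0.44 on array 2, mean 0.02, against -0.21 for all genes). Its second probe, with loess, gave 0.39 ± 0.06. Both Isg20 probes are shown because they give similar ratios from different sequences.
Isg20, brightest probe: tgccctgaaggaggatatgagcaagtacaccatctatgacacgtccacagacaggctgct
Isg20, second probe: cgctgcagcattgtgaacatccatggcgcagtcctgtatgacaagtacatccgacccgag

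Oasl1 belongs to the oligoadenylate synthetase-like proteins and in mice restrains the translation of Irf7. Its normalised intensity was 9468 on array 1 and 8238 on array 2 in the miR-181b RNA, against 6592 and 6758 in the control RNA, a log2 ratio of 0.40 ± 0.12. With loess Oasl1 was higher on both arrays, as were 24.5% of all genes. Without loess the signs of Oasl1 were opposite too, at 0.40 on array 1 and -0.36 on array 2 (mean 0.02). The related Oasl2 was at 0.08 ± 0.09, with 0.17 on array 1 and -0.01 on array 2. The oligoadenylate synthetases themselves sense double-stranded RNA and make a second messenger that switches on RNase L. Oas1a was at 0.16 on both arrays and Oas3 at 0.13 ± 0.03, although a second Oas3 probe had opposite signs (-0.07 on array 1 and 0.33 on array 2). Oas2 was lower on both arrays, at -0.10 ± 0.02. Oas1b, which in many laboratory mice carries a stop codon, was at 0.15 ± 0.31, with -0.16 on array 1 and 0.46 on array 2. These genes and Oasl1 and Oasl2 all lie on chromosome 5, and cross-hybridisation among relatives was not tested.

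The Mx genes encode dynamin-like GTPases that block the replication of RNA viruses. Mx1 and Mx2 had opposite signs. Mx1 gave 1025 on array 1 and 966 on array 2 in the miR-181b RNA, against 902 and 727 in the control RNA (0.30 ± 0.11), and its second probe gave 0.22 ± 0.27. Mx2 gave 2522 and 2340 in the miR-181b RNA, against 2751 and 2798 in the control RNA. At -0.19 ± 0.07 it had the lowest mean of the set, and 89.5% of all genes had a higher one. Mx1 in the common laboratory strains carries a deletion that inactivates the protein.

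Adar, which deaminates adenosines in double-stranded RNA, was at 0.29 ± 0.12 (0.17 on array 1 and 0.41 on array 2), and its second probe at 0.20 ± 0.22. Isg15, a ubiquitin-like protein that is attached to other proteins, gave 6460 on array 1 and 6616 on array 2 in the miR-181b RNA, against 5464 and 6204 in the control RNA (0.17 ± 0.07). The guanylate-binding GTPase gene Gbp2 was at 0.17 ± 0.08, while Gbp3 was at -0.01 ± 0.01. Of the Ifit proteins, Ifit1 binds viral RNA that lacks host cap modifications. Ifit1 was at 0.12 ± 0.01, Ifit3 at 0.13 ± 0.04 (second probe 0.16 ± 0.06) and Ifit2 at -0.03 ± 0.12 with opposite signs. The surface protein gene Bst2, whose product tethers budding virus particles, was at 0.03 ± 0.02.

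The kinase gene Eif2ak2 (PKR), which halts translation on binding double-stranded RNA, was at 0.10 ± 0.25, with 0.36 on array 1 and -0.15 on array 2. Rsad2 (viperin) was at 0.11 ± 0.21, again higher on array 1 (0.31) than on array 2 (-0.10), whereas its 2 dimmer probes were higher on array 2 (0.26 and 0.33). The nucleotide-hydrolysing Samhd1 was at 0.14 ± 0.24, with -0.10 on array 1 and 0.38 on array 2, and its other probe had the reverse pattern, at 0.23 and -0.15. Ifi44 was at -0.06 ± 0.06, and its other probe at -0.06 ± 0.09. None of these 4 genes kept 1 sign on both arrays.

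**Figure D2:**
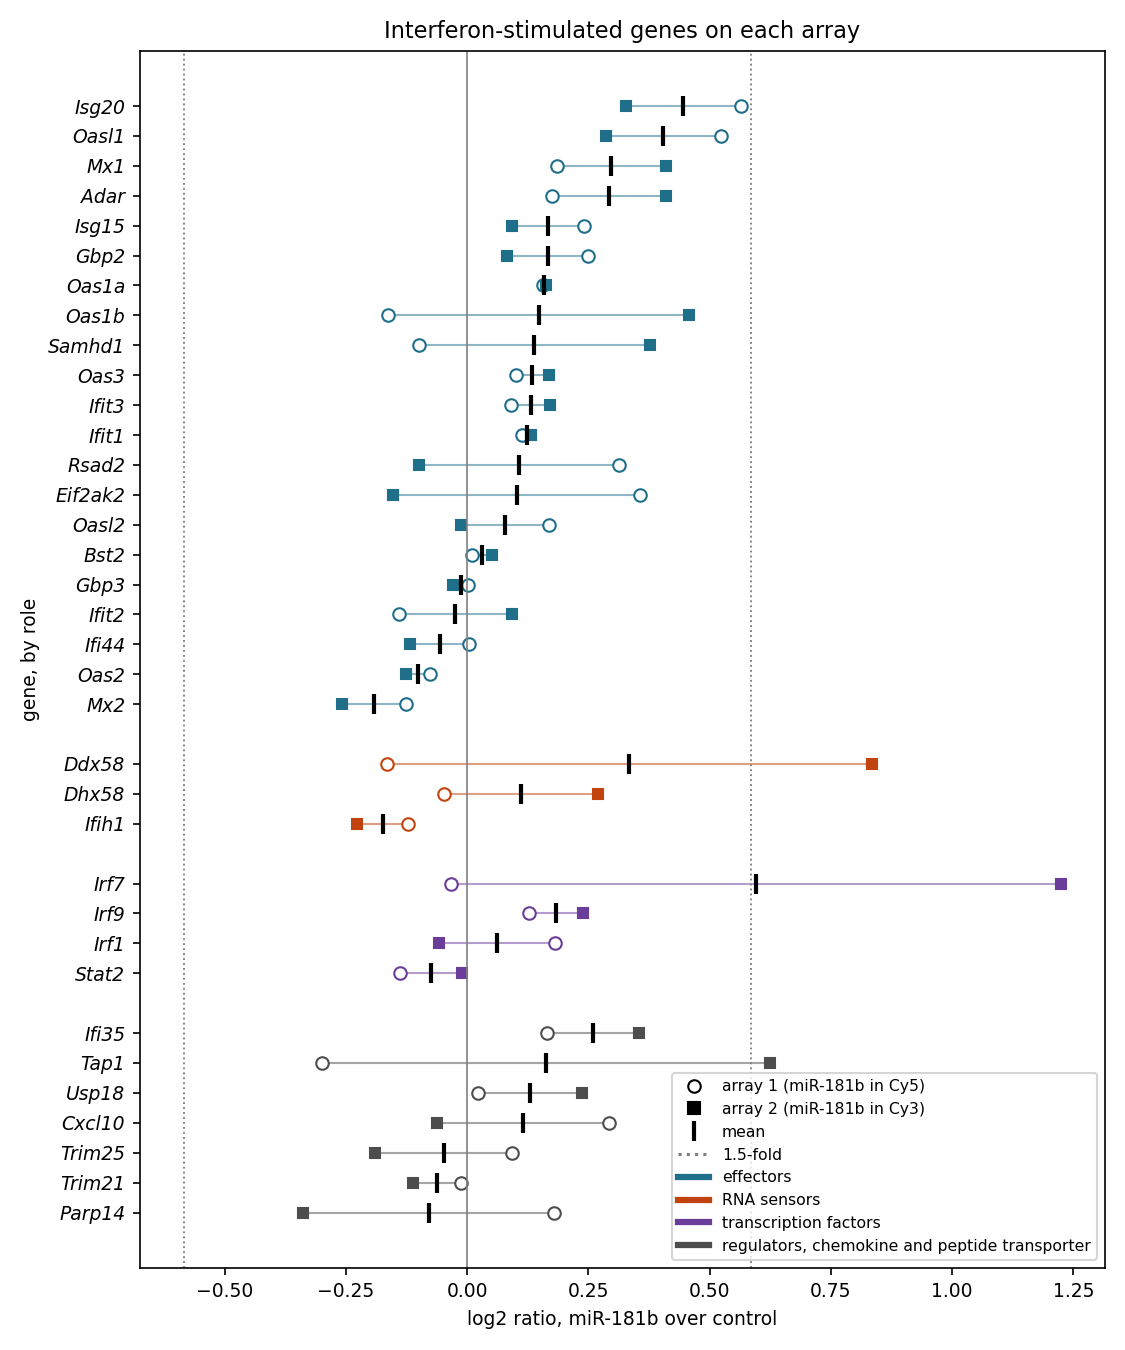
Log2 ratio of miR-181b over control (horizontal axis) of the 35 measured interferon-stimulated genes, grouped by role and ordered by mean within a role. Open circles are array 1, squares array 2, black ticks the mean and dotted lines 1.5-fold; within the set Isg20 and Oasl1 have the highest array 1 values, while Irf7 and Ddx58 have the highest array 2 values and lie below 0 on array 1 (-0.03 and -0.17).

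Sensors of viral RNA were mixed. Of the 3 helicases, 0 were higher on both arrays (against 24.5% of all genes) and 1 was lower (33.3%, against 27.4%). Ddx58 (RIG-I) detects RNA with a triphosphate end. It gave 1087 on array 1 and 1397 on array 2 in the miR-181b RNA, against 1220 and 784 in the control RNA. The control was thus higher on array 1 and the miR-181b RNA on array 2, at 0.33 ± 0.50. The 4 Ddx58 probes had means between -0.04 and 0.64, and 3 of them were between 0.37 and 1.26 on array 2 and between -0.17 and 0.01 on array 1. The probe with the lowest mean was designed on a complementary DNA clone, not on the RefSeq transcript. Ifih1 (MDA5), which detects long double-stranded RNA, was lower on both arrays at -0.17 ± 0.05, although its dimmer probe gave 0.04 ± 0.34. Dhx58 (LGP2), which lacks signalling domains and modulates the other helicases, was at 0.11 ± 0.16. Both brighter Ddx58 probes are shown because they carry the difference between the arrays.
Ddx58, brightest probe: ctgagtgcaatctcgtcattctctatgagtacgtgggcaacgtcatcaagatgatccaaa
Ddx58, second probe: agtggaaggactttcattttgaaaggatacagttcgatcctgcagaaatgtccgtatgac

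The median of the pathway's transcription factors was 0.12 (array 1: 0.05, array 2: 0.11). On both arrays 1 of 4 was higher (25%, against 24.5% of all genes) and 1 lower (25%, against 27.4%). Irf7, the factor that amplifies interferon alpha genes, had the highest mean of the set at 0.60 ± 0.63. The intensity of Irf7 was 2494 on array 1 and 3412 on array 2 in the miR-181b RNA, against 2553 and 1460 in the control RNA. The difference rested on array 2 alone (1.22, against -0.03 on array 1), so Irf7 did not meet the 1.5-fold rule although 0.809% of all genes had a higher mean. Only 1 probe of Irf7 was on the array, shown here since the set's highest mean comes from it.
Irf7: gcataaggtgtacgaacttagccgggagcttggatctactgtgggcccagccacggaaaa
Irf9, the DNA-binding part of the complex with Stat2, gave 7028 and 6848 in the miR-181b RNA, against 6431 and 5807 in the control RNA (0.18 ± 0.05). Its dimmer probe was at 0.27 ± 0.38. Stat2 was lower on both arrays, at -0.07 ± 0.06. Irf1, a factor also induced by interferon gamma, was at 0.06 ± 0.12 with opposite signs, and its dimmer probe gave 0.42 ± 0.47, of which 0.89 came from array 2. When all probes of a factor were averaged instead, the median of the 4 factors was 0.23.

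**Figure D3:**
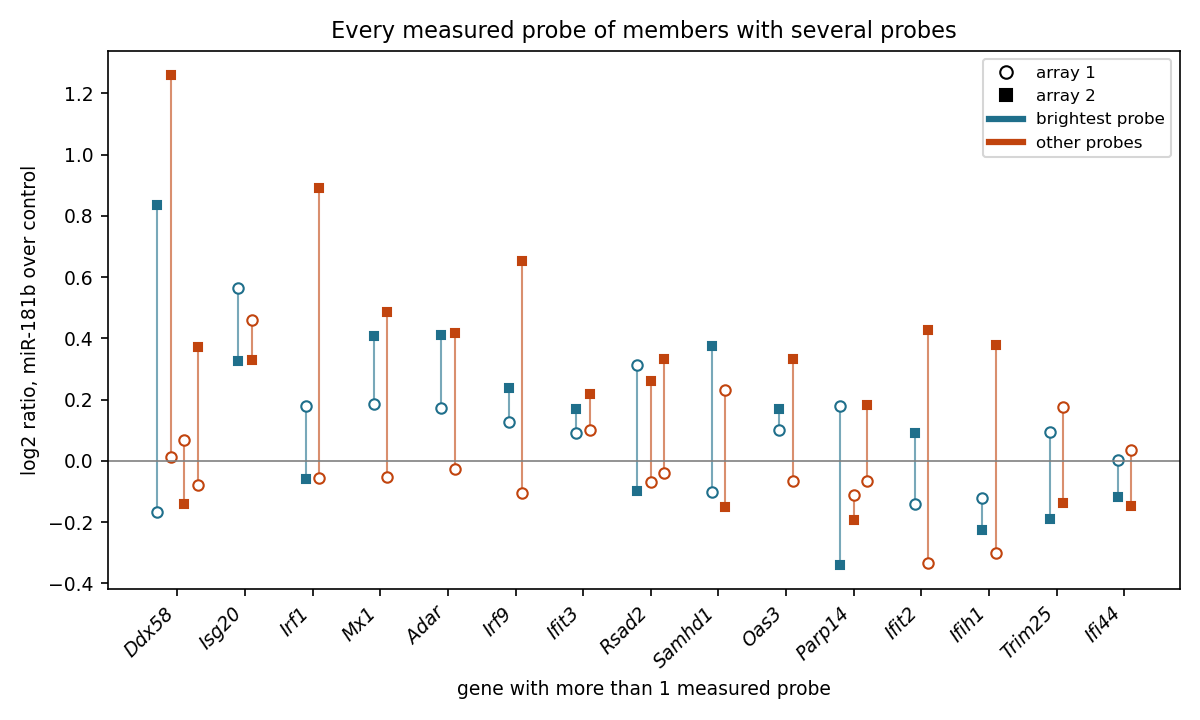
Log2 ratio of miR-181b over control (vertical axis) of every measured probe of the 15 interferon-stimulated genes with more than 1 such probe. Open circles are array 1 and squares array 2, blue marks the brightest probe of a gene and orange its other probes; both Isg20 probes lie between 0.33 and 0.56 on both arrays, whereas a dim probe of Irf1 reaches 0.89 on array 2 and lies at -0.05 on array 1.

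Regulators, the chemokine gene Cxcl10 and the peptide transporter gene Tap1 together gave 0.11 as their median, from 0.09 on array 1 and -0.06 on array 2. On both arrays 2 of 7 were higher (28.6%, against 24.5% of all genes) and 1 lower (14.3%, against 27.4%). Ifi35 gave 6385 on array 1 and 6821 on array 2 in the miR-181b RNA, against 5695 and 5338 in the control RNA (0.26 ± 0.09). Usp18 removes Isg15 from proteins and blocks the interferon receptor. It was at 0.13 ± 0.11 and higher on both arrays. Trim21, an antibody-binding ubiquitin ligase, was lower on both at -0.06 ± 0.05. Trim25, which activates Ddx58 protein, was at -0.05 ± 0.14, and its dimmer probe at 0.02 ± 0.16. Parp14, an ADP-ribosyltransferase linked to interleukin-4 signalling, was at -0.08 ± 0.26 with opposite signs, and its other probes were at -0.15 ± 0.04 and 0.06 ± 0.12. Cxcl10, which attracts activated T cells, had 139 and 105 in the miR-181b RNA against 113 and 110 in the control RNA. The Cxcl10 probe was thus dim. Its log2 ratio was 0.11 ± 0.18, or 0.55 with the scanner software's own ratio. Tap1, which carries peptides to MHC class I, gave 3486 on array 1 and 4673 on array 2 in the miR-181b RNA, against 4288 and 3033 in the control RNA. Its signs were opposite (-0.30 on array 1 and 0.62 on array 2, mean 0.16).

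The set's ratios on the arrays were not positively correlated across genes. Pearson's r between the arrays was -0.17 and Spearman's rho -0.13 over the 35 genes, and over all measured genes they were 0.03 and 0.09. Both arrays hold the same RNA pair, and genes are not independent replicates. The median distance of either array from the mean was 0.11 in the set and 0.09 over all genes. None of the 35 genes was saturated. Of the 15 genes with several measured probes, 5 (33.3%) had probes whose means differed in sign, against 41.7% of the 5747 such genes on the array. Guanine and cytosine content of the 54 measured probes was weakly related to the array 2 minus array 1 difference (Pearson's r 0.21, against 0.17 over all 25787 measured probes).

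**Figure D4:**
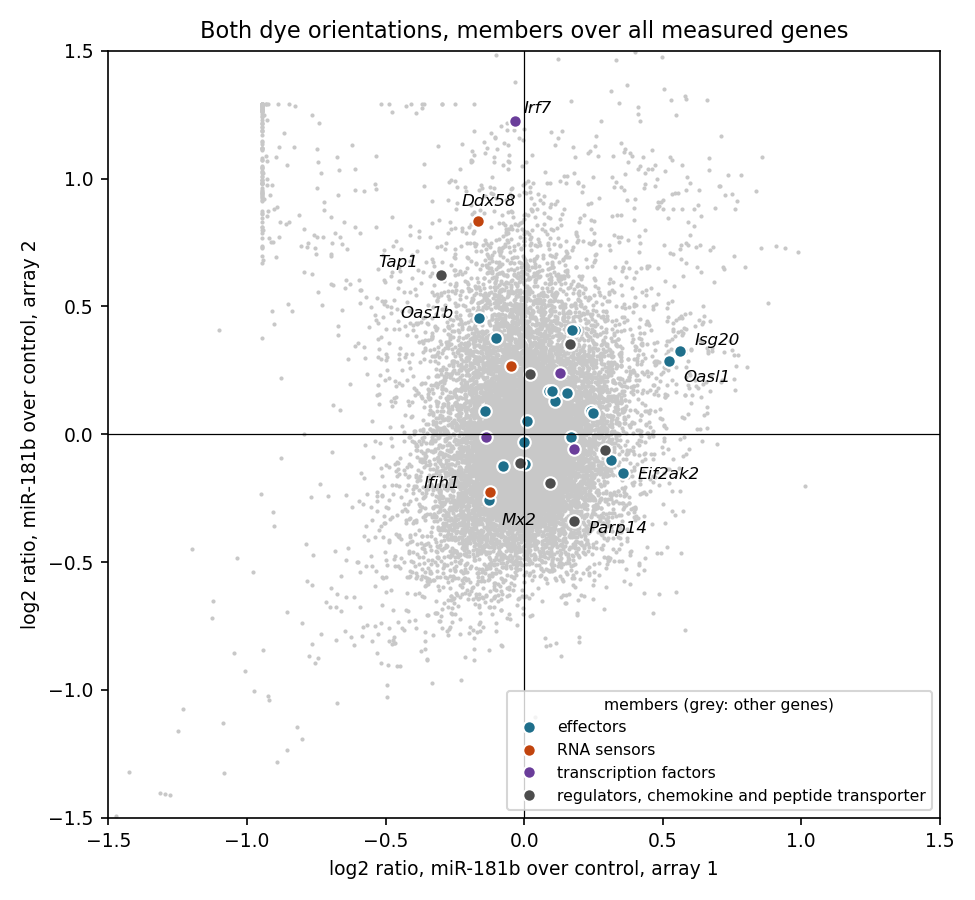
Log2 ratio of miR-181b over control on array 2 (vertical axis) against array 1 (horizontal axis), with interferon-stimulated genes coloured by role and the other measured genes in grey (13 genes lie outside the axes). Isg20 and Oasl1 lie in the upper right, higher on both arrays, while Irf7, Ddx58 and Tap1 lie above 0 on array 2 and below 0 on array 1.

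Genes upstream of the set were followed through lists of the interferon pathway. Of 19 interferon genes listed, 8 were measured and 4 had no probe. Another 6 were not well above background in any channel (among them Ifnb1, the interferon beta gene), and 1 was so in some channels only. Of the 8 measured, 3 were higher on both arrays (37.5%, against 24.5% of all genes) and 0 lower (against 27.4%). Their median was -0.02, with Ifna9 at 0.13 ± 0.04 and Ifna12 at 0.09 ± 0.07. These probes were dim, with a median log2 intensity of 7.90, against 9.43 for all measured genes. Interferon alpha genes are close relatives, so their probes may share signal. All 6 receptor genes were measured, with a median of -0.02. On both arrays 2 were higher (33.3%, against 24.5% of all genes) and 1 lower (16.7%, against 27.4%). The interferon gamma receptor chain Ifngr1 was at -0.13 ± 0.07 and Il10rb, shared with the lambda interferon receptor, at 0.11 ± 0.03.

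The list of JAK kinases, STAT factors and their inhibitors depended on the choice of probe. Of 17 measured by their brightest probe, 0 were higher on both arrays (against 24.5% of all genes) and 9 lower (52.9%, against 27.4%). The median was -0.10 (-0.08 on each array), or -0.46 without loess, against -0.21 for all genes. When each gene's probes were averaged, the list's median was -0.01, and with the arrays scaled to the same spread it was -0.06. Stat3, the factor used by interleukin-6 and interleukin-10 receptors, gave 12572 on array 1 and 12810 on array 2 in the miR-181b RNA, against 18247 and 16936 in the control RNA (-0.47 ± 0.07). A dimmer Stat3 probe gave -0.03. Stat5b was at -0.34 ± 0.25, with other probes at 0.01 and 0.11. Jak1, the kinase shared by the interferon receptors, was at -0.27 ± 0.09, with another probe at -0.11. The phosphatase gene Ptpn2 was at -0.23 ± 0.18, with another probe at 0.02.

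Among sensing adaptors and kinases, 8 of 20 measured were higher (40.0%, against 24.5% of all genes) and 4 were lower on both arrays (20.0%, against 27.4%). The list's median was 0.11 (array 1: 0.03, array 2: 0.18). Ticam1 (TRIF), the adaptor that links Tlr4 and Tlr3 to interferon genes, was at 0.41 ± 0.36, and its second probe at 0.37. Most of both values came from array 2. The endosomal receptors Tlr7 and Tlr9 were at 0.20 ± 0.12 and 0.20 ± 0.05, and the adaptor Myd88 at 0.17 ± 0.10. Among the other interferon regulatory factors, 1 of 6 was higher on both arrays (16.7%, against 24.5%) and 1 lower (16.7%, against 27.4%). Irf4, which drives plasma cell formation, was at 0.36 ± 0.19 and Irf2, a repressor of interferon genes, at -0.14 ± 0.10.

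A further list of interferon-stimulated genes outside the set had a median of 0.02 with loess and -0.30 without it, where all genes were at -0.005 and -0.21. Of 46 measured, 11 were higher (23.9%, against 24.5%) and 12 lower on both arrays (26.1%, against 27.4%). Lgals9, a galectin gene, was at 0.55 ± 0.47 (0.08 on array 1 and 1.03 on array 2), Lgals3bp at 0.32 ± 0.09 and Slfn2 at 0.32 ± 0.22. The scramblase gene Plscr1 was at -0.28 ± 0.07, with its other probes at -0.24 and -0.25. Of 19 measured interferon gamma GTPases and MHC class I genes, both arrays placed 4 higher (21.1%, against 24.5%) and 1 lower (5.26%, against 27.4%). The list's median was 0.10 (array 1: -0.12, array 2: 0.19), and 6 of them were saturated. The peptide-loading gene Tapbp was at 0.27 ± 0.08, with another probe at 0.47 (0.06 on array 1 and 0.87 on array 2). Gbp6 was at 0.25 ± 0.21, Igtp at 0.20 ± 0.05 and Gbp5 at -0.22 ± 0.17.

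Markers of the sorted cells and of other cells were read beside the set. All 11 B cell markers were measured, among them Cd79a and Pax5, and 3 were saturated. Their median was 0.22 (array 1: -0.21, array 2: 0.74). Over the 8 that were never saturated the medians were -0.06 on array 1 and 0.70 on array 2. Of these 8, 5 were below 0 on array 1 and above 0 on array 2. In the set Irf7, Ddx58, Tap1, Oas1b, Samhd1, Dhx58 and Ifit2 had this pattern, and the remaining genes of opposite sign had the reverse. Opposite signs in either direction were seen in 48.1% of all genes. The share of all genes with this direction alone was not counted, so these counts have no background of their own. In the miR-181b RNA the summed intensity of the 8 never saturated B cell markers was 98373 on array 1 and 126476 on array 2. In the control RNA it was 109996 and 75360. The part of this in the values of those genes of the set was not tested. Plasmacytoid dendritic cells express Bst2 and Irf7 strongly. Of 10 of their markers 8 were measured, and their median was 0.08 (array 1: -0.0025, array 2: 0.27). On both arrays 3 were higher (37.5%, against 24.5% of all genes) and 2 lower (25%, against 27.4%). The defining marker Siglech was not well above background in every channel. The summed intensity of the 8 was 80879 on array 1 and 124435 on array 2 in the miR-181b RNA, against 120610 and 70589 in the control RNA, and 1 saturated gene, Ly6d, made up most of it. Over the other 7 it was 33845 and 33491 in the miR-181b RNA, against 36864 and 28818 in the control RNA. Spib (18065 on array 1 in the miR-181b RNA) and Tcf4 (10994) made up most of it on both arrays. Whether their RNA came from B cells was not tested. Natural killer cell markers (5 of 11 measured) had a median of 0.12, and 3 of the 5 were higher on both arrays (60.0%, against 24.5% of all genes). Their defining gene Ncr1 was not well above background in any channel. Their summed intensity was 2581 and 2672 in the miR-181b RNA, against 2140 and 1938 in the control RNA. Most of it came from 1 gene, Il2rb (1626 and 1833, against 1274 and 1256), while Klrb1c, Klrd1 and Klre1 read between 87 and 159. The part of either cell type in the ratios of the set was not tested. Medians of conventional dendritic cell markers (8 measured), macrophage and monocyte markers (9), T cell markers (13) and granulocyte markers (3) were -0.02, -0.02, 0.01 and -0.10.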

How the data were processed

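Messenger RNA was measured on 2 two-colour Agilent whole mouse genome arrays. The deposited scanner files were made with Agilent Feature Extraction 9.1.3.1, per the file headers. They give, for each dye, an uncorrected mean spot intensity and a median local background intensity, both linear. The deposited processed intensities, and the log10 ratio of Cy5 over Cy3 made from them, had a spatial background trend removed and a dye normalisation with lowess settings, per the file headers. A deposited value table gives 1 log2 ratio per array (medians -0.0626 and -0.0704). For 40929 of 40929 probes with 1 spot, its pairs of values matched those from the processed intensities to 0.001, given a sign change for array 2 and shifts of 0.0011 and 0.0327. Its identifiers match no probe column, so none of its rows was named or used.

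With limma 3.58.1 in R 4.3.3, background was corrected by normexp (offset 50) and loess was run within each array, giving control spots no weight. Outlier spots (7 on array 1, 21 on array 2) were left out, saturated spots were kept, and spots of a probe were averaged. Each array held 43379 non-control spots, and 64.7% to 67.7% were well above background in a channel. Only 2 arrays limit the precision. Probes were named by RefSeq accession (22936), symbol (6654), synonym (3108) or the file's name (8448), with the RefSeq table of GRCm38.p6. A gene was at least 1.5-fold higher or lower when its mean ratio was, with the same sign on both arrays. The named genes are all members, and of each pathway list at most 4 genes, those farthest from 0 by mean among genes whose arrays had equal signs. Ifnb1, marker genes and second probes were named beside the rule. The steps were tested on simulated data in which genes were unchanged or changed at least 2-fold. Differences as small as the set's median were not covered by that test. Members and lists were chosen with earlier results of these data known. Some withheld items are not reported here.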

Additional observations from a re-analysis of the deposited data

How the results depend on the processing

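The set's median log2 ratio of 0.12 moved to 0.113 by the scanner's own log ratio, to 0.109 with arrays scaled to the same spread, to -0.217 with median centring without loess (-0.205 for all genes), to 0.126 over the 32 genes matched by name, and to 0.1215 and 0.1202 less the median of genes in the same intensity bin, with and without loess. Either array alone gave 0.0927 to 0.093. Effectors were at 0.113 by the scanner's ratio, -0.217 with median centring, 0.116 with centring less the bin's median, and 0.0927 to 0.113 on either array alone. With median centring, RNA sensors were at -0.267, transcription factors at -0.273 and regulators at -0.237. With the mean of all probes the transcription factors were at 0.234. On either array alone sensors ranged from -0.122 to 0.269, transcription factors from 0.0472 to 0.114 and regulators from -0.0629 to 0.093.

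Of the members, 14 were higher and 5 lower on both arrays, against 1 and 17 with median centring. On either array alone, where 1 sign suffices, 21 to 23 were higher and 12 to 14 lower, while 51.5% of all genes were higher on array 1 and 45.6% on array 2. At 1.5-fold 0 members were higher, against 0 to 3 on either array alone (the 3 on array 2 are Irf7, Ddx58 and Tap1), and 0 were lower under every setting run. Over all genes the 1.5-fold counts of 144 higher and 90 lower became 226 and 203 with the scanner's log ratio and 6 and 908 with median centring, where the median of all genes was -0.21. On either array alone they were 104 to 884 higher and 258 to 278 lower. The cause was not tested, except that a single array drops the need for equal signs. Median centring turned the sign of 19 of 35 members. It also moved the median of all genes from -0.005 to -0.205, and how many of all genes turned was not counted. The settings for dim and saturated probes could not move a member, since each stands by its brightest measured probe and 0 members were saturated.

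No paired analysis was possible because both arrays hold the same pair of RNAs. The spread between the arrays is technical. Cxcl10, a dim probe with normalised intensities of 105 to 139, was at 0.11, against 0.55 by the scanner's ratio. The cause was not tested.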
